A study of Mus musculus with 9 samples.

Results

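The genes of voltage-gated and potassium ion channels were followed through 3 mouse pluripotent cell lines. Members were all probe sets on the array whose platform annotation gives a symbol that starts with Kcn, Cacn or Hcn, or a numbered voltage-gated sodium channel symbol (Scn followed by a number and a or b). Kcnq1 and Kcnq1ot1 were left out by that rule. It took 148 of 28853 probe sets, and these stood for 129 of the 19938 genes measured. Each gene was represented by the probe set with the highest mean log2 value over the 9 arrays. There were 88 potassium channel genes, 24 calcium channel genes, 11 sodium channel genes, 3 pacemaker (HCN) genes and 3 noncoding genes that carry a channel symbol (Kcnd3os, Kcnmb4os1 and Kcnmb4os2). All 129 matched a RefSeq gene by gene ID.

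RNA came from P19 NTES7, P19 and R1 cells, with 3 arrays for each line. P19 NTES7 grew out of a blastocyst cloned by moving a P19 nucleus into an enucleated oocyte and resembles ES cells. It is a single derived line. P19 is a mouse embryonal carcinoma line, a malignant stem cell line of a teratocarcinoma, and R1 is a mouse embryonic stem cell line. All 3 lines grew untreated in the same medium with serum and leukemia inhibitory factor. The sample labels name the derived line only as pluripotent stem cells made from P19, and it was taken as P19 NTES7, the only such line in the array tables of the study. The methods place NTES cells and other pluripotent stem cells on mitotically inactivated mouse embryonic fibroblasts, and the labels state that feeder cells were removed before RNA extraction. For P19 the methods name no feeder layer, so in comparisons with P19 the line and growth on feeders cannot be told apart. Arrays are biological repeats by the labels. No source used here says that they were separate cultures, and the p-values then cover only the spread from array to array, which may be technical.

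Values were intensities after Robust Multichip Average (RMA) on the linear scale, in arbitrary units of probe set brightness. The median of all values was 16.87, with array medians from 16.47 to 17.53, and folds of probe sets near or below this median were read as inexact. The lowest correlation between arrays of a line was 0.989 and the highest between lines was 0.978. A gene was called at a fold over 2 with an adjusted p under 0.01 (limma, Benjamini-Hochberg over all probe sets). This holds for every adjusted p given here, and ± after a log2 difference gives its standard error (3 arrays a line). Pou5f1, the core pluripotency factor, was at 1663, 1265 and 1485 in P19 NTES7, 2268, 2249 and 2071 in P19 and 1372, 1391 and 1647 in R1. Of 10 listed markers of the pluripotent state, 10 were above the array median in P19 NTES7, 9 in P19 and 10 in R1. Of these, 5 were called lower in P19 against R1, 4 higher and 1 lower in P19 NTES7 against P19, and 5 lower in P19 NTES7 against R1. Of 19 measured fibroblast markers, 16 were called lower in P19 than in R1. In P19 NTES7, 13 were called higher relative to P19 and 3 lower relative to R1. In P19 against R1, P19 NTES7 against P19 and P19 NTES7 against R1, calls covered 84.2%, 68.4% and 15.8% of the fibroblast list. They covered 50% of the pluripotency list in each, and 7.31%, 2.83% and 4.51% of all genes. The summed intensity of the fibroblast markers was 1291 to 1594 in P19 NTES7, 304 to 329 in P19 and 1994 to 2312 in R1. Dcn, the matrix proteoglycan decorin, was at 88.7, 78.0 and 75.0 in P19 NTES7, 8.55, 8.17 and 8.63 in P19 and 196, 186 and 313 in R1. The part of these markers in the channel results was not tested, and in whole cultures fewer cells of a type and less RNA per cell cannot be told apart.

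Voltage-gated channels open and close with the potential across the membrane. Sodium channels carry the upstroke of an action potential, calcium channels turn depolarisation into calcium entry, and potassium channels repolarise the cell or hold its resting potential. A pore subunit usually works with accessory subunits that set its gating and its place in the membrane. Pluripotent cells are not regarded as excitable but hold a resting potential. P19 cells are widely used because retinoic acid turns them into neurons and dimethyl sulfoxide into muscle.

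Most channel genes were dim in every line. Of the 129 genes, 91 had a mean below the array median in all lines and 38 were above it in at least 1 line. Those above it numbered 24 in P19 NTES7, 33 in P19 and 22 in R1. Among all genes measured, 11235 of 19938 were above the median in at least 1 line. Only 9 channel genes exceeded the median 2-fold in a line: Kcnq3, Kcnma1, Kcnt2, Kcnj3, Kcnk1, Kcnk5, Cacna1h, Cacng7 and Scn8a. The bright ones thus came from many families, and for Kcnma1 the identity of the probe set is unsettled, as described with its values.

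More channel genes were called higher than lower in P19 against R1, and more lower than higher in P19 NTES7 against P19. In P19 against R1, 11 channel genes were called higher (8.53% of 129, where 3.46% of all genes were) and 1 was called lower (0.775%, where 3.85% of all genes were). In P19 NTES7 against P19, 1 was called higher (0.775%, against 1.44% of all genes) and 6 were called lower (4.65%, against 1.38% of all genes). In P19 NTES7 against R1, 3 were called higher (2.33%, against 1.68% of all genes) and 4 were called lower (3.1%, against 2.84% of all genes), so both shares were near the background. Among the genes called higher against R1, in P19 and in P19 NTES7, is Kcnma1, whose probe set is of unsettled identity. In either direction, 7.31%, 2.83% and 4.51% of all genes were called in the 3 comparisons, which is the background for every family and list here. In all, 15 channel genes were called in at least 1 comparison and 114 in none. Of those 114, 49 had an unadjusted limma p under 0.05 in some comparison. Genes with such a p were not counted over all genes, so counts of them here, also for families and lists, have no background. They are no sign of a difference particular to these genes. In P19 against R1, 3871 of all 19938 genes were higher and 3040 lower even at an adjusted p under 0.05 with no fold limit. Where a channel family is said here to have no call in a comparison, the methods' one-way test over the lines, with its p not adjusted, called none of its genes either. That test was given the same log2 differences and the same fold limit. No uncalled channel gene had a fold over 2, so this outcome was fixed and adds no support.

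The median log2 difference of the 129 genes was 0.04 in P19 against R1, 0.01 in P19 NTES7 against P19 and 0.03 in P19 NTES7 against R1, and over all genes it was -0.02, 0.02 and 0.01. Over the 38 channel genes above the array median in a line it was 0.32, -0.35 and 0.01, against 0.08, -0.08 and 0.01 over the 11235 genes above it. A gene that passed this level through 1 line alone had to differ, so the second set of medians is a description and no support for a shift. The comparisons share the arrays of each line, and each was fitted and adjusted on its own contrast. Adding an offset of 16, about the array median, to each intensity before log2 pulled most of these folds below 2, and the calls became 3, 2 and 4 of 129 in the 3 comparisons. Of all 19938 genes, the calls then were 319 higher and 409 lower, 134 and 106, and 150 and 305, in the same order.

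**Figure D1:**
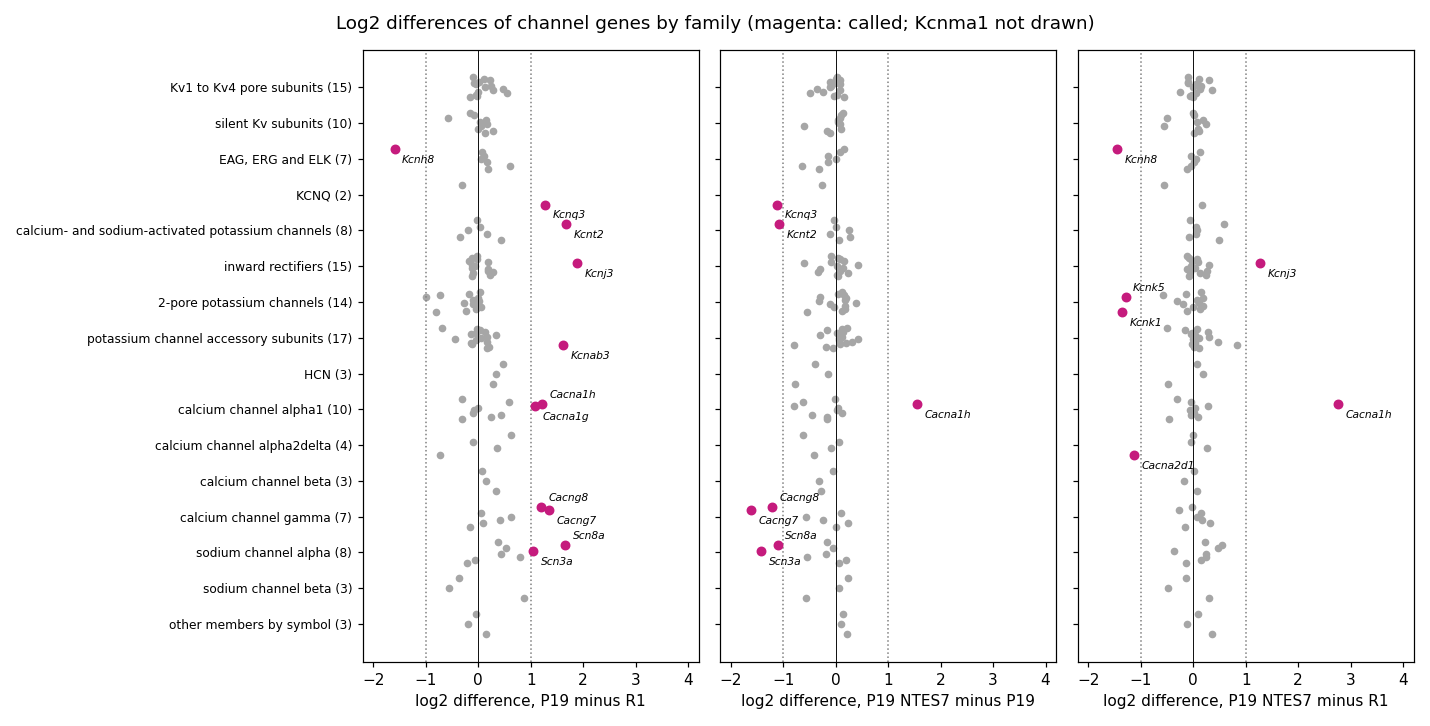
Log2 differences (horizontal axis) of the channel genes, one point a gene, by family (rows, with the number of genes) for P19 minus R1, P19 NTES7 minus P19 and P19 NTES7 minus R1. Magenta points were called, dotted lines mark a 2-fold difference, and the Kcnma1 probe set is not drawn. In P19 minus R1, 10 magenta points lie to the right and 1, Kcnh8, to the left, and in P19 NTES7 minus P19, 6 lie to the left and 1, Cacna1h, to the right.

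Among the sodium channel genes, Scn3a and Scn8a were higher in P19 than in either other line. They encode pore-forming alpha subunits of neurons, Scn3a one that is prominent before birth and Scn8a one that is concentrated at the axon initial segment. In P19 against R1, 2 of 8 alpha subunit genes were called higher and 0 lower, and in P19 NTES7 against P19, 2 of 8 were called lower and 0 higher. In P19 NTES7 against R1 none of the 8 was called, and 4 had an unadjusted limma p under 0.05. None of the 3 beta subunit genes was called in any comparison. All 3 had such a p in P19 against R1, Scn2b higher in P19 and Scn3b and Scn4b lower. In either direction the calls are 18.2%, 18.2% and 0% of the 11 sodium channel genes, against 7.31%, 2.83% and 4.51% of all genes.

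Scn8a was at 19.1, 19.4 and 15.1 in P19 NTES7, 38.2, 34.2 and 42.7 in P19 and 12.1, 11.7 and 12.8 in R1. The 3 lines did not overlap, with P19 highest and R1 lowest and under the array median. In log2 terms the difference was 1.65 ± 0.120 in P19 against R1 (adjusted p = 1.56e-07, limma), -1.11 ± 0.120 in P19 NTES7 against P19 (2.2e-05) and 0.54 ± 0.120 in P19 NTES7 against R1 (0.00404), the last without reaching a 2-fold difference. Without P19 NTES7 replicate 3 the second value was -0.99, which ended that call.

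Scn3a was at 10.9, 11.5 and 14.4 in P19 NTES7, 32.1, 35.0 and 30.9 in P19 and 15.7, 15.2 and 16.6 in R1. Only the P19 arrays stood above the array median, and no array of one line reached into another line. Its log2 difference was 1.04 ± 0.114 in P19 against R1 (adjusted p = 7.87e-06, limma), just inside the limit at a fold of 2.06 and lost at 0.99 without P19 replicate 2, and -1.42 ± 0.114 in P19 NTES7 against P19 (1.57e-06). In P19 NTES7 against R1 it was -0.37 ± 0.114 (0.027), which was not called.

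Scn3a lies on chromosome 2 in a cluster of sodium channel genes, together with Scn2a, Scn1a, Scn9a and Scn7a in that order. None of these neighbours was called in any comparison. Scn1a, an alpha subunit of inhibitory neurons, was at 10.1, 10.6 and 11.5 in P19 NTES7, 15.7, 15.4 and 16.2 in P19 and 8.75, 9.27 and 9.06 in R1. Its lines did not overlap, but every array was below the array median and the log2 difference of 0.80 ± 0.0914 in P19 against R1 (adjusted p = 1.18e-05, limma) was under the fold limit. Scn2a, an alpha subunit of excitatory neurons, had 14 probe sets, and none was called in any comparison. Between the channel genes of the cluster lies Ttc21b, which encodes a protein of ciliary transport and is no channel gene. Its log2 difference was 1.53 in P19 against R1 (adjusted p = 4.83e-07, limma) and -1.001 in P19 NTES7 against P19 (7.58e-05), both called.

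The sodium channel beta subunits, single-pass proteins that modify gating and adhesion, had means below the array median in every line. The largest difference was that of Scn2b, at 11.1, 9.57 and 13.5 in P19 NTES7, 19.5, 15.9 and 14.9 in P19 and 9.84, 9.53 and 8.19 in R1. Its log2 difference of 0.86 ± 0.140 in P19 against R1 (adjusted p = 0.000278, limma) did not reach 2-fold. Scn3b and Scn4b went the other way in that comparison, at -0.55 ± 0.125 (0.00366) and -0.37 ± 0.149 (0.0753).

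Among the calcium channel genes, 4 of 24 were called higher and 0 lower in P19 against R1, 1 higher and 2 lower in P19 NTES7 against P19, and 1 higher and 1 lower in P19 NTES7 against R1. In either direction these are 16.7%, 12.5% and 8.33% of the 24, against 7.31%, 2.83% and 4.51% of all genes. The gamma genes Cacng7 and Cacng8, only distantly tied to calcium channels, made 2 of the 4 higher calls in P19 against R1. They also made both lower calls in P19 NTES7 against P19. Cacna1h, the alpha1 subunit of a low-voltage-activated T-type channel, was 6.76-fold higher in P19 NTES7 than in R1, and no other channel gene was called higher relative to P19. Its intensity was 98.9, 63.6 and 77.0 in P19 NTES7, 24.6, 25.6 and 31.1 in P19 and 11.9, 10.6 and 12.5 in R1. The lines followed each other without overlap, and R1 lay under the array median. Fitted log2 differences were 1.22 ± 0.149 in P19 against R1 (adjusted p = 2.35e-05, limma), 1.54 ± 0.149 in P19 NTES7 against P19 (8.89e-06) and 2.76 ± 0.149 in P19 NTES7 against R1 (1.86e-08).

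Cacna1g, which encodes another T-type alpha1 subunit, had a different pattern. It was at 14.6, 17.5 and 16.7 in P19 NTES7, 27.0, 26.3 and 31.7 in P19 and 12.4, 12.4 and 15.7 in R1. P19 was highest without overlap, while the arrays of P19 NTES7 and R1 overlapped. In P19 against R1 its log2 difference was 1.08 ± 0.123 (adjusted p = 1.19e-05, limma), and without P19 replicate 3 it was 0.99, which ended the call. In P19 NTES7 against P19 it was -0.80 ± 0.123 (0.000418), short of 2-fold.

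The other 8 alpha1 genes, which include those of L-type, P/Q-type, N-type and R-type channels, were called in no comparison. Of the third T-type gene, Cacna1i, the log2 differences were 0.59 in P19 against R1, -0.62 in P19 NTES7 against P19 and -0.03 in P19 NTES7 against R1. Of Cacna1c, the main L-type subunit of heart and brain, they were 0.43, -0.46 and -0.04. Of the 3 T-type genes, Cacna1h alone had its highest level in P19 NTES7.

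The gamma subunit genes Cacng7 and Cacng8 were higher in P19 than in both other lines. Gamma-7 and gamma-8 belong to the transmembrane AMPA receptor regulatory proteins, which traffic and gate glutamate receptors and are only distantly tied to calcium channels. Of 7 gamma genes, these 2 were called higher and 0 lower in P19 against R1, the same 2 were called lower in P19 NTES7 against P19, and none was called in P19 NTES7 against R1, where 1 had an unadjusted limma p under 0.05. Over all genes, 3.46% were called higher in P19 against R1 and 1.38% lower in P19 NTES7 against P19.

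Cacng7 was at 43.3, 36.2 and 32.4 in P19 NTES7, 106, 121 and 114 in P19 and 43.5, 40.7 and 50.3 in R1. The P19 arrays were far above the rest, and those of P19 NTES7 and R1 overlapped. This gave log2 differences of 1.35 ± 0.123 in P19 against R1 (adjusted p = 1.43e-06, limma), -1.62 ± 0.123 in P19 NTES7 against P19 (9.04e-07) and -0.27 ± 0.123 in P19 NTES7 against R1 (0.137).

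Cacng8 was at 12.2, 12.7 and 11.9 in P19 NTES7, 32.5, 27.2 and 26.3 in P19 and 12.9, 12.5 and 12.01 in R1. Here only P19 was above the array median, and the other lines overlapped. Log2 differences were 1.19 ± 0.101 in P19 against R1 (adjusted p = 7.18e-07, limma), -1.22 ± 0.101 in P19 NTES7 against P19 (2.26e-06) and -0.02 ± 0.101 in P19 NTES7 against R1 (0.918). Since P19 NTES7 and R1 lay below the array median, these folds are not exact.

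Cacng7 and Cacng8 are adjacent on chromosome 7. The nearest measured genes on either side, Myadm, Tarm1 and Oscar, were called in no comparison. The sequence of 250 bases before the gene start of each, from the RefSeq table of GRCm38.p6, is shown because these neighbours differed between the lines in the same direction. Capitals mark matches on either strand to a GC box (GGGCGG) in Cacng7 and to the core of the right arm of the REST site (GGACAG) in Cacng8. REST is the repressor of many neuronal genes.
Cacng7, chr7:3332575-3332824, plus strand: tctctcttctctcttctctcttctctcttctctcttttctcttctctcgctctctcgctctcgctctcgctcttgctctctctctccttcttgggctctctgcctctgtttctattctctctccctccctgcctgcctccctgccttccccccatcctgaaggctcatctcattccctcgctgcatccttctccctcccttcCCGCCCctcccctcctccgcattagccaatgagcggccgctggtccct
Cacng8, chr7:3393792-3394041, plus strand: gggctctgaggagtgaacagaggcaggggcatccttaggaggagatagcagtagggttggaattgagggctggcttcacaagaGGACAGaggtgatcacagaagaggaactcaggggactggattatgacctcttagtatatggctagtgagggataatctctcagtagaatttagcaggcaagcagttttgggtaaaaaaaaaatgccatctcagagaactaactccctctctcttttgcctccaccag
The Cacng7 window has 9 CG dinucleotides and the Cacng8 window has 0. The window of Cacng7 holds 1 GC box and that of Cacng8 none, and GGACAG occurs in Cacng8 alone. Neither holds TTCAGCACC, the left arm of the REST site.

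Some partners of these gamma subunits in the AMPA receptor also differed between the lines. Of 7 measured AMPA receptor genes and partners, 3 were called higher and 0 lower in P19 against R1, 2 were called lower and 0 higher in P19 NTES7 against P19, and none was called in P19 NTES7 against R1, where 3 had an unadjusted limma p under 0.05. In either direction these are 42.9%, 28.6% and 0% of this short list, against 7.31%, 2.83% and 4.51% of all genes. Gria4, a pore subunit, was at 16.2, 15.2 and 14.2 in P19 NTES7, 30.05, 32.6 and 41.7 in P19 and 15.0, 15.0 and 20.2 in R1. Cnih2, a cornichon auxiliary subunit, was at 18.3, 17.1 and 21.2 in P19 NTES7, 42.2, 42.5 and 53.5 in P19 and 19.2, 20.6 and 21.0 in R1. Both were highest in P19 and overlapped between the other lines. For Gria4 the log2 difference was 1.06 ± 0.143 in P19 against R1 (adjusted p = 5.77e-05, limma) and -1.18 ± 0.143 in P19 NTES7 against P19 (5.72e-05). For Cnih2 it was 1.18 ± 0.118 (3.63e-06) and -1.28 ± 0.118 (5.53e-06). Dlg4, the scaffold protein PSD-95, had a log2 difference of 1.18 ± 0.130 in P19 against R1 (8.77e-06) and was not called in the other comparisons.

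Of the 4 alpha2delta genes, only Cacna2d1 was called. It encodes an extracellular accessory subunit that brings channels to the surface and binds gabapentin. Its intensity was 12.1, 15.7 and 14.1 in P19 NTES7, 21.4, 15.7 and 18.8 in P19 and 29.6, 27.9 and 34.8 in R1. R1 was highest without overlap, and P19 NTES7 and P19 overlapped. The log2 difference was -1.14 ± 0.136 in P19 NTES7 against R1 (adjusted p = 3.19e-05, limma) and -0.73 ± 0.136 in P19 against R1 (0.000882), which was short of 2-fold. Its other probe set gave -1.13 ± 0.118 (1.04e-05) and -0.55 ± 0.118 (0.00235). None of the 3 beta subunit genes was called, and the largest difference was that of Cacnb1, a cytoplasmic beta subunit, with a log2 difference of 0.35 ± 0.1003 in P19 against R1 (0.0169).

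Most potassium channel genes were called in no comparison. Of 88 genes, 5 were called higher and 1 lower in P19 against R1, 0 higher and 2 lower in P19 NTES7 against P19, and 2 higher and 3 lower in P19 NTES7 against R1. One of those called higher in P19 and in P19 NTES7 against R1 is the Kcnma1 probe set of unsettled identity. In either direction these are 6.82%, 2.27% and 5.68% of the potassium channel genes, against 7.31%, 2.83% and 4.51% of all genes, so the shares were near the background.

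Kcnj3, the G-protein-gated inward rectifier GIRK1, was the channel gene with the largest log2 difference between P19 and R1 apart from that probe set. It was at 106, 88.3 and 99.8 in P19 NTES7, 140.1, 147 and 163 in P19 and 36.0, 42.2 and 43.5 in R1. All arrays were well above the array median, the lines did not overlap, and P19 NTES7 lay between the others. The log2 difference was 1.89 ± 0.111 in P19 against R1 (adjusted p = 2.11e-08, limma), a fold of 3.70, and 1.27 ± 0.111 in P19 NTES7 against R1 (1.88e-06), a fold of 2.42. In P19 NTES7 against P19 it was -0.61 ± 0.111 (0.00149), which did not reach 2-fold. The other 14 inward rectifier genes, among them Kcnj5, Kcnj6 and Kcnj9, which encode the other GIRK subunits, were called in no comparison. Of these GIRK partners the log2 differences in P19 against R1 were -0.17 for Kcnj5, -0.02 for Kcnj6 and -0.02 for Kcnj9.

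Kcnq3 and Kcnt2 were called higher in P19 against R1 and lower in P19 NTES7 against P19. Kcnq3, a subunit of the M-current that restrains repetitive firing, was at 18.5, 21.0 and 18.1 in P19 NTES7, 35.3, 41.1 and 49.3 in P19 and 17.2, 17.6 and 16.5 in R1. P19 was above the other lines without overlap, and both of those were close to the array median. The log2 difference was 1.28 ± 0.121 in P19 against R1 (adjusted p = 2.02e-06, limma) and -1.12 ± 0.121 in P19 NTES7 against P19 (2.17e-05), and the second call was lost without P19 replicate 3, at -0.99. Kcnt2, a sodium-activated potassium channel, was at 17.02, 18.4 and 15.5 in P19 NTES7, 33.7, 34.6 and 39.98 in P19 and 11.7, 10.8 and 11.4 in R1. Its lines did not overlap. The log2 difference was 1.67 ± 0.104 in P19 against R1 (3.45e-08), -1.09 ± 0.104 in P19 NTES7 against P19 (7.78e-06) and 0.58 ± 0.104 in P19 NTES7 against R1 (0.00086), the last short of 2-fold.

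Among 17 accessory subunit genes of potassium channels, only Kcnab3 was called. It encodes a cytoplasmic beta subunit of voltage-gated channels. It was at 16.3, 18.1 and 24.0 in P19 NTES7, 32.8, 29.4 and 38.3 in P19 and 12.02, 11.1 and 9.51 in R1. The lines did not overlap, and the log2 difference was 1.62 ± 0.150 in P19 against R1 (adjusted p = 1.63e-06, limma). In P19 NTES7 it was -0.79 ± 0.150 against P19 (0.00199) and 0.83 ± 0.150 against R1 (0.000943), neither of which reached 2-fold.

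Kcnh8 was the only channel gene called lower in P19 than in R1. It encodes a voltage-gated potassium channel of the ELK type. It was at 9.28, 10.4 and 9.98 in P19 NTES7, 8.80, 8.45 and 9.54 in P19 and 29.6, 27.9 and 23.8 in R1. Only R1 was above the array median, and the other lines overlapped below it, so the folds are not exact. Fitted log2 differences were -1.60 ± 0.106 in P19 against R1 (adjusted p = 6.76e-08, limma) and -1.45 ± 0.106 in P19 NTES7 against R1 (3.48e-07). Its other probe set had -0.66 ± 0.117 (0.000598) and -0.82 ± 0.117 (0.000151), lower in the same lines but not called. The other 6 genes of the EAG, ERG and ELK group were not called, and Kcnh2, the ERG channel of the heart, had log2 differences of 0.60 in P19 against R1 and -0.64 in P19 NTES7 against P19.

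The 2-pore channels, which carry the leak current behind the resting potential, were represented by 14 genes. None was called in P19 against R1 or in P19 NTES7 against P19, where 5 and 4 had an unadjusted limma p under 0.05, while 2 were called lower in P19 NTES7 against R1. Kcnk5, the TASK-2 channel, was at 52.5, 55.5 and 67.7 in P19 NTES7, 68.7, 73.7 and 72.1 in P19 and 151, 156 and 123 in R1. Kcnk1, the TWIK-1 channel, was at 23.7, 21.6 and 20.1 in P19 NTES7, 34.9, 34.4 and 26.6 in P19 and 48.8, 56.5 and 61.8 in R1. Both genes were lowest in P19 NTES7 and highest in R1, with no overlap between lines. For Kcnk5 the log2 difference was -1.29 ± 0.121 in P19 NTES7 against R1 (adjusted p = 3.74e-06, limma), and in P19 against R1 it was just outside the limit at a fold of 1.99 (2.23e-05). For Kcnk1 it was -1.35 ± 0.128 in P19 NTES7 against R1 (4.1e-06) and -0.81 ± 0.128 in P19 against R1 (0.000243). Kcnk6, another leak channel of the TWIK group, had log2 differences of -0.74 in P19 against R1 and -0.59 in P19 NTES7 against R1, without a call.

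The windows before the starts of Kcnj3 and Kcnh8 are shown because these genes had the largest log2 differences in either direction between P19 and R1 apart from the unsettled probe set. Capitals mark GGACAG in Kcnj3 and a GC box on the opposite strand in Kcnh8.
Kcnj3, chr2:55435720-55435969, plus strand: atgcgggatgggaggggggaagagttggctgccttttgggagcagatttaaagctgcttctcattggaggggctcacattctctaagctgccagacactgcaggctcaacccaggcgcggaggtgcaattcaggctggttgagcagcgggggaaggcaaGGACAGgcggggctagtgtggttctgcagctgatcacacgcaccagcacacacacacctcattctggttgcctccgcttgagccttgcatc
Kcnh8, chr17:52602459-52602708, plus strand: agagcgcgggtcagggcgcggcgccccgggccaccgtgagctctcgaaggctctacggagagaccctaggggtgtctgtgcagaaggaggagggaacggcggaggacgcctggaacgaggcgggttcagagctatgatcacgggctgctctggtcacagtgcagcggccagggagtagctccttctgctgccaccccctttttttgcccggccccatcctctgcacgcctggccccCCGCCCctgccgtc
Windows of this length were at hand for 99 of the 129 channel genes (134 windows), and for all genes there were 32851. TTCAGCACC was in 0 of the 134 channel windows and in 0.301% of all windows. GGACAG was in 19.4% of channel windows and 18.7% of all windows. The octamer ATGCAAAT, which POU factors bind, was in 0.746% of channel windows and 1.6% of all windows. GGGCGG was in 43.3% of channel windows and 32.7% of all windows, and the TATA box TATAAA was in 3.73% of channel windows and 12.4% of all windows. These are matches of letters on both strands and not sites of binding, and GC boxes that overlap each other were counted once per window.

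**Figure D2:**
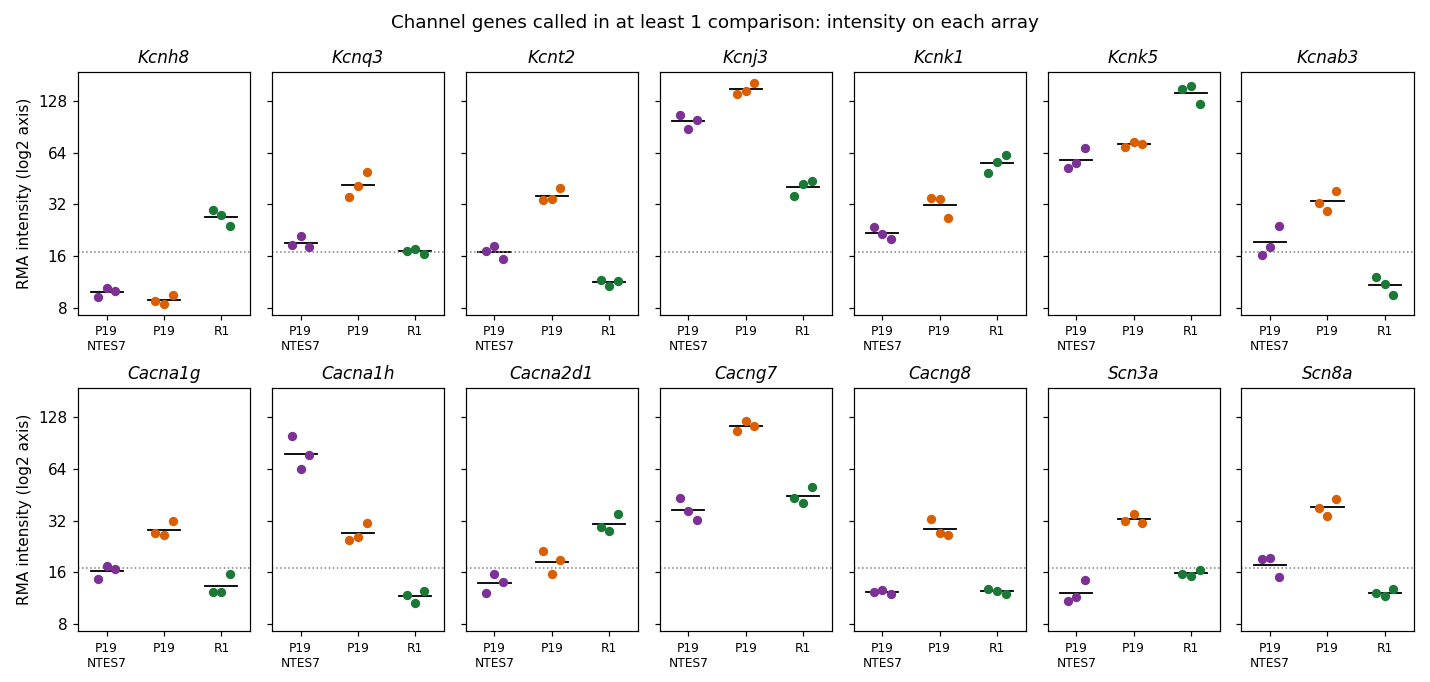
RMA intensity (vertical log2 axis) of the 14 channel genes called in at least 1 comparison, apart from Kcnma1, on each of 3 arrays of P19 NTES7, P19 and R1. Points are arrays, bars are geometric means and the dotted line is the array median of 16.87. Cacna1h is highest in P19 NTES7, while Kcnh8, Kcnk1, Kcnk5 and Cacna2d1 are highest in R1 and the other 9 in P19.

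The largest log2 difference of all members was that of a probe set annotated as Kcnma1, the large-conductance calcium-activated potassium channel. The identity of this probe set is unsettled. The brightest probe set with this symbol, 10582545, was at 108, 208 and 91.6 in P19 NTES7, 142, 146 and 219 in P19 and 5.71, 6.83 and 5.66 in R1. P19 NTES7 and P19 overlapped, and R1 was far below the array median. Log2 differences were 4.78 ± 0.248 in P19 against R1 (adjusted p = 6.83e-09, limma), 4.40 ± 0.248 in P19 NTES7 against R1 (2.69e-08) and -0.38 ± 0.248 in P19 NTES7 against P19 (0.347). The supplementary tables of the study name this probe set Mela, a melanoma antigen gene, and not Kcnma1. The genes of all 20 probe sets nearest to it in number are on chromosome 8, whereas Kcnma1 is on chromosome 14. For each of the other 128 channel genes, the commonest chromosome among the 20 nearest probe sets was that of the gene. All 20 were on it for 82 of these genes, and the lowest number was 10, for Cacng7. The name given by the study and the place in the number order thus both go against Kcnma1. The probe sequences were not examined here.

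The other Kcnma1 probe set, 10418053, is annotated with RefSeq transcripts of Kcnma1. It was at 14.1, 10.4 and 13.8 in P19 NTES7, 13.5, 15.3 and 13.1 in P19 and 10.04, 9.98 and 10.1 in R1, all below the array median. Its log2 difference was 0.47 ± 0.121 in P19 against R1 (adjusted p = 0.00799, limma) and 0.34 ± 0.121 in P19 NTES7 against R1 (0.059), so it was not called. With this probe set in place of the brightest, 11 channel genes were called in P19 against R1 in place of 12, and 6 in P19 NTES7 against R1 in place of 7.

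**Figure D3:**
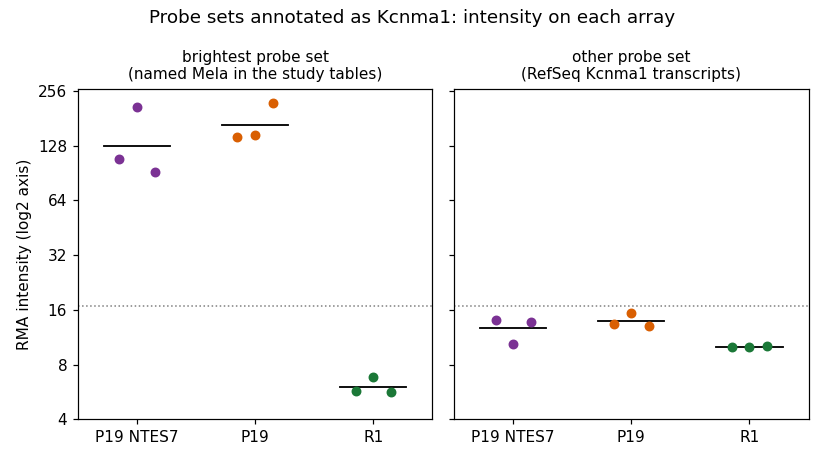
RMA intensity (vertical log2 axis) of both probe sets annotated as Kcnma1 on each of 3 arrays of P19 NTES7, P19 and R1. Points are arrays, bars are geometric means and the dotted line is the array median of 16.87. The brightest probe set is near 6 in R1 and above 91 in the other lines, while the other probe set stays between 9.98 and 15.3 on all arrays.

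Whole families gave no call. None of the 15 pore subunit genes of the Kv1 to Kv4 groups, the classical delayed rectifier and A-type channels, was called, and the largest difference was that of Kcna3, a channel best known from T cells, with a log2 difference of 0.55 ± 0.124 in P19 against R1 (adjusted p = 0.00338, limma). None of the 10 silent subunit genes, which alter other pores and form none alone, was called, and Kcng3 had the largest difference, -0.61 ± 0.139 in P19 NTES7 against P19 (0.00735). Hcn2, a pacemaker channel, was at 20.3, 11.7 and 14.7 in P19 NTES7, 24.6, 25.8 and 27.5 in P19 and 25.6, 23.6 and 15.9 in R1. Its log2 difference of -0.78 ± 0.195 in P19 NTES7 against P19 (0.0128) was not called, and P19 and R1 overlapped. At an unadjusted limma p under 0.05 in some comparison there were 5 of the 15, 3 of the 10, all 3 HCN genes and 2 of the 3 calcium channel beta genes. The noncoding gene Kcnd3os had a log2 difference of 0.36 ± 0.114 in P19 NTES7 against R1 (0.0331).

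Other ion transport genes were counted in the same way. Of 18 measured genes of the sodium pump and the cation-chloride cotransporters, 2 were called higher and 2 lower in P19 against R1, none in P19 NTES7 against P19, and 1 higher and 1 lower in P19 NTES7 against R1. In either direction this is 22.2% of the list in P19 against R1, where 7.31% of all genes were called, and 11.1% in P19 NTES7 against R1, where 4.51% were. Atp1b2, a beta subunit of the sodium pump, was at 135, 95.1 and 107 in P19 NTES7, 121, 148 and 141 in P19 and 26.1, 31.8 and 41.7 in R1, with log2 differences of 2.06 ± 0.167 in P19 (adjusted p = 4.44e-07, limma) and 1.77 ± 0.167 in P19 NTES7 (3.89e-06), both against R1. Atp1b1, the most widespread beta subunit, had a log2 difference of 1.21 ± 0.0971 in P19 against R1 (3.96e-07). Fxyd5, a regulator of the pump, had -1.71 ± 0.119 in the same comparison (9.93e-08), and Fxyd6, its relative, had -1.30 ± 0.156 in P19 NTES7 against R1 (3.21e-05).

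Of 10 measured genes of intracellular calcium release and store-operated entry, none was called by limma in any comparison, and 7 had an unadjusted p under 0.05 in some comparison. Of 26 measured TRP channel genes, Mcoln3, a lysosomal cation channel, was called, with a log2 difference of 1.40 ± 0.109 in P19 against R1 (adjusted p = 2.99e-07, limma). Among 13 measured scaffolds and anchors, Ank2, which tethers channels to the spectrin skeleton, was called higher in P19 (1.70 ± 0.158, 1.76e-06) and in P19 NTES7 (1.15 ± 0.158, 0.000103) than in R1. Cask, a membrane scaffold kinase, was called higher in P19 NTES7 relative to P19 (1.46 ± 0.131, 4.31e-06). Of 11 measured genes of REST and its corepressors, only Rcor2 was called, lower in P19 NTES7 than in R1 (log2 difference -1.002 ± 0.132, 6.96e-05).

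Neuronal markers were measured beside the neuronal channels. Of 14, 4 were called higher and 0 lower in P19 against R1, 0 higher and 5 lower in P19 NTES7 against P19, and 0 higher and 2 lower in P19 NTES7 against R1. In either direction these are 28.6%, 35.7% and 14.3% of the list, against 7.31%, 2.83% and 4.51% of all genes. The summed intensity of the 14 was 373 to 403 in P19 NTES7, 747 to 886 in P19 and 577 to 631 in R1. Elavl3, a neuronal RNA-binding protein, was at 27.6, 19.1 and 20.7 in P19 NTES7, 84.0, 81.2 and 75.8 in P19 and 27.9, 29.1 and 29.0 in R1. Nefm, a neurofilament subunit, was at 14.03, 13.97 and 17.9 in P19 NTES7, 37.6, 36.0 and 39.0 in P19 and 10.02, 11.2 and 9.04 in R1. Both were highest in P19 with no overlap with the other lines, and so were Syt1, Gap43, Tubb3, Snap25 and Elavl4. Syt1 and Gap43 were called in the same comparisons as Elavl3 and Nefm, and Tubb3, Snap25 and Elavl4 in none. Map2, Rbfox3, Stmn2, Stmn3, Dcx, Nefl and Syp were not highest in P19 without overlap. Stmn2, a microtubule regulator, was at 101, 102 and 86.3 in P19 NTES7, 256, 261 and 320.3 in P19 and 292, 309 and 316 in R1, with P19 and R1 overlapping. Nefl, another neurofilament subunit, was at 34.6, 38.4 and 37.7 in P19 NTES7, 27.7, 30.03 and 23.2 in P19 and 39.7, 37.01 and 47.4 in R1. It was lowest in P19 without overlap, with a log2 difference of -0.62 ± 0.122 in P19 against R1 (adjusted p = 0.00135, limma) that did not reach 2-fold. The part of these markers in the levels of Scn3a, Scn8a, Kcnq3, Cacng7 and Cacng8 was not tested. None of 12 heart muscle markers was called by limma in any comparison, and 7 had an unadjusted p under 0.05 in some comparison. Of 10 primitive endoderm markers, 1 was called lower in P19 against R1, 2 higher in P19 NTES7 against P19, and none in P19 NTES7 against R1. These are 10%, 20% and 0% of that list.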

How the data were processed

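The deposited values were intensities of 28853 probe sets on 9 arrays (GeneChip Mouse Gene 1.0 ST, 100 ng of total RNA each), 3 each of P19 NTES7, P19 and R1. Per the methods, the authors obtained these intensities by Robust Multichip Average. They were on a linear scale, and a median scaling given in the methods was absent from them. RMA shrinks differences between dim probe sets, so folds of dim genes are imprecise. The background correction and the array images were not examined here.

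Each probe set was log2-transformed, and 1 linear model with a mean per line was fitted over the 9 arrays in limma 3.58.1 under R 4.3.3, with moderated variances. P-values were two-sided and adjusted by the Benjamini-Hochberg method over all probe sets of a comparison. The platform annotation gave 1 symbol to 21789 probe sets, several to 1621 and none to 5443. Probe sets with several symbols were left out, 3 of them with a channel symbol. Columns of the authors' own comparisons were not used.

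The members, families, marker lists and tests were chosen with earlier results of these data known. Named genes were every called member with all its probe sets, the member with the largest difference in each family without a call, members with a fold near 2, Kcnma1, and up to 4 called genes of each list. Cacna1i, Cacna1c, Kcnh2, Kcnk6, Scn1a, Nefl, the GIRK partners and the neighbours of the clusters were named after their values were seen. Replicate numbers did not pair the arrays: deviations of arrays with the same number correlated between -0.223 and 0.0404. On data simulated with these spreads for P19 against R1 over 28853 probe sets, 48 of 50 probe sets changed 3-fold and 47 of 50 changed 2.5-fold were called. These folds were added to values after RMA, so its shrinkage of dim probe sets was left out. The rates therefore do not carry over to dim genes, and 91 of the 129 channel genes lay below the array median in all lines. The number of arrays limits the precision, and the median SD of a log2 value was 0.132 in P19 NTES7, 0.106 in P19 and 0.121 in R1. Promoter windows came from RefSeq (GRCm38.p6).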

Additional observations from a re-analysis of the deposited data

How the results depend on the processing

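The 26 called differences of channel genes were recomputed under alternative settings, which gave 546 values: 523 kept their call, 23 lost it and 0 changed sign. Only 7 of the 26 kept their call under every setting. Some settings could end few calls or none. An adjusted p under 0.05 with no fold limit keeps every call, and the other Kcnma1 probe set touches that gene alone. A variance trend, a fit to both lines alone and the loss of a third-line array leave the log2 difference unchanged. So do a block by replicate number, the methods' one-way test and, for the called genes, leaving out dim probe sets. The mean of all probe sets can alter only the 7 channel genes with several probe sets. The 523 values are thus no measure of stability. Of the lost calls, 17 came from an offset of 16 added before log2, 2 from the other Kcnma1 probe set and 4 from leaving out 1 array. With the offset, 3 channel genes were called in P19 against R1, 2 in P19 NTES7 against P19 and 4 in P19 NTES7 against R1, in place of 12, 7 and 7. Of all 19938 genes, 319 were then called higher and 409 lower in P19 against R1. In P19 NTES7 they were 134 and 106 against P19, and 150 and 305 against R1. The offset pulls folds of dim genes towards 1 by construction. With an adjusted p under 0.05 and no limit on the fold, the counts were 37, 28 and 24 of 129. Of all 19938 genes, that limit took 3871 higher and 3040 lower in P19 against R1. It took 1661 and 2400 in P19 NTES7 against P19, and 2816 and 2669 in P19 NTES7 against R1. A large part of all genes thus passed it, and the channel counts show no shift of their own. With the replicate number as a block (replicate block) the channel counts were 12, 7 and 7, and the numbers do not pair the arrays. Centring of arrays, repeated quantile normalization, leaving out dim probe sets, a variance trend, the mean of all probe sets and the methods' one-way test kept each count within 1.5 times. For the settings that leave the log2 difference unchanged this was largely fixed in advance and adds no support.

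Leaving out 1 array ended 4 calls, each at a fold just under 2: Cacna1g in P19 against R1 (0.99 on the log2 scale, without P19 replicate 3), Scn3a in P19 against R1 (0.99, without P19 replicate 2), Kcnq3 in P19 NTES7 against P19 (-0.99, without P19 replicate 3) and Scn8a in P19 NTES7 against P19 (-0.99, without P19 NTES7 replicate 3). Uncalled differences near 0 changed sign: Kcnh8 in P19 NTES7 against P19 was -0.0034 with the mean of its probe sets, and Cacng8 in P19 NTES7 against R1 ranged from -0.048 to 0.0023 when 1 array was left out. Above 2 times the array median, channel genes numbered 5 in P19 NTES7, 7 in P19 and 4 in R1. Intensity near or below the array median limits every dim member, and 3 arrays a line limit the rest.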
